A study of Homo sapiens with 4 samples.

Results

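The m6A map of control RPMI-8226 cells held 22448 peaks in 11318 genes, and all of them are described here on their own. RPMI-8226 is an established human multiple myeloma line, a cancer of antibody-secreting plasma cells. The cells had been transduced with a lentivirus carrying the hairpin labelled shNC, so they were not untouched cells, and they received no other named agent. The study made 4 libraries and 2 peak lists, 1 list for shNC and 1 for cells with a hairpin against ALKBH5, and the shNC list rests on 2 of the 4 libraries. Those were 1 library of poly(A) RNA bound by an anti-m6A antibody (the IP) and 1 library of the same kind of RNA with no antibody (the input). Every peak that the authors deposited for shNC was a member, with no further choice, and the largest false discovery rate among cells that could be read was 0.0479. The fold of a peak is the authors' ratio of IP over input, and its log10 p is also theirs, with more negative values for stronger peaks. There was 1 library of each kind, so no value has a replicate and no test was made. No read counts were used, so the depth of the libraries is unknown. Shares are given with exact Clopper-Pearson 95% intervals, which cover counting error only, and peaks are not independent of one another.

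N6-methyladenosine is a methyl group placed on adenosines of messenger RNA by a nuclear complex built around METTL3 and METTL14. It is removed by the demethylases ALKBH5 and FTO and is read by proteins such as the YTH family, which bear on the splicing, translation and decay of the marked transcript. In mammalian mRNA the mark lies mostly in a short consensus whose commonest core is GGAC, and it is best known from long internal exons and the region around the stop codon. Antibody enrichment does not separate it from m6Am, a related mark next to the cap.

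No genome sequence was used, so the consensus could be looked for only where a reference table held sequence under a peak. The motif searched was GGAC on the transcribed strand, and it overlaps neither itself nor the other motifs given below. Of 1562 microRNA hairpins in RefSeq (GRCh38.p14), 21 had at least 1 base in a peak on the same strand, 12 lay wholly inside a peak block, and 20 lay in a peak listed under another gene. GGAC was present in 12 of the 21 (57.1%, interval 34 to 78.2) and in 27.3% of all 1562 (interval 25.1 to 29.6), at median lengths of 81 and 80 bases. The whole hairpin was searched, also where only part of it lay in a peak. Neither another motif nor the GC content is given for the hairpins. The first 50 transcribed bases lay inside a peak of the same gene for 701 genes, and GGAC was present there in 22.1% (19.1 to 25.4), beside 19.7% of 15843 protein-coding genes with such a sequence. The other 3 motifs searched there were GAAC (11.3% beside 11.8%), AGAC (14.1% beside 15.6%) and AAAC (8.13% beside 9.15%), so the shares at gene starts lay close to those of all coding genes. The first transcribed base was A in 58.1% of the 701 genes (54.3 to 61.7) and in 50.7% of the coding genes (50 to 51.5), and the GC content of the 50 bases was 65.8% beside 63.6%.

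The following 24-base stretches show GGAC, in capitals, under 6 peaks. They were taken as examples of the core inside a peak, at high and at low folds, and a match of letters does not mark the methylated base. The first 4 lie in hairpins wholly covered by a peak and are written with U, and the last 2 lie within the first transcribed bases of their own gene and are written with T. All are written 5′ to 3′ along the RNA.
MIR922, in RUBCN, minus strand, chr3:197674538-197674561: ucccuguccuGGACuggggucaga
MIR7844, in TMCC3, minus strand, chr12:94571307-94571330: agaaaaacuaGGACuguguggugu
MIR3652, in HSP90B1, plus strand, chr12:103930479-103930502: cgaucgaaggGGACuugagacuca
MIR1181, in CDC37, minus strand, chr19:10403461-10403484: gcaagaugguGGACuacagcgugu
FBXO5, gene start, minus strand, chr6:152983539-152983562: gggctaagctGGACtggggggagg
FBL, gene start, minus strand, chr19:39846344-39846367: cgaaagccccGGACtcgtggagtt
The peak over the MIR922 stretch belonged to RUBCN, which encodes an inhibitor of autophagy, and stood at a fold of 20.6 with log10 p -374. The TMCC3 peak had a fold of 7.7, the HSP90B1 peak 2.97 and the CDC37 peak 3.57, so the same core stood under folds that differed widely. FBXO5, an inhibitor of the anaphase-promoting complex, had a start peak of 1258 bases in 4 blocks with a fold of 18.2, and FBL, the methyltransferase fibrillarin, had one of 358 bases in 3 blocks with a fold of 26.2. Several hairpins carried a peak of their own that ended at the hairpin's ends, such as the 97 bases listed under MIR1182 with a fold of 6.87 inside a FAM89A peak of 390 bases with a fold of 7.53. These pairs are the same stretch of RNA listed under both genes, but their folds could differ. The peak listed under MIR922 itself stood at 4.1 with log10 p -5.34, far below the RUBCN peak over it.

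Most genes with a peak had few. A single peak was listed for 5587 genes (49.4%, 48.4 to 50.3), 2 peaks for 26.7%, 3 for 12.6% and 4 for 5.86%, with a mean of 1.98 per gene. At least 5 peaks were listed for 623 genes (5.5%, 5.09 to 5.94), which together held 17.3% of all peaks, and at least 10 for 37 genes. Of the 20056 protein-coding genes of RefSeq, 44.4% had at least 1 peak and 2.88% had at least 5, and these shares are the background for the gene groups described further on. Neighbouring peaks of a gene lay close together: the median gap was 956 bp, 49.6% of 11130 neighbouring pairs were separated by under 1000 bp, and 7.33% by under 100 bp. The peaks of genes with at least 5 peaks were wider than those of single-peak genes, with median widths of 300 and 241 bases, and had a slightly lower median fold, 6.24 beside 6.91. Genes with at least 10 peaks had the lowest median fold of these classes, 5.35.

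Gene span went with the share of coding genes that had a peak, but not evenly. The share was 23.8% (22.3 to 25.3) for genes under 5 kb, 41.9% from 5 to 20 kb, 52.8% from 20 to 50 kb, 53.8% (51.5 to 56) from 100 to 200 kb, and 42% (39.4 to 44.7) for genes of 200 kb or more. The mean number of peaks in genes with a peak went from 1.73 in the shortest class to 2.57 from 100 to 200 kb. Peaks matched to protein-coding genes by symbol and span made up 81.9% of the list. Long noncoding RNA genes matched by symbol held 847 peaks in 480 genes, 2.62% of those in RefSeq. Their median fold was 9.01 but their median log10 p -9.12, beside 6.16 and -18.6 for coding genes. A further 2598 peaks (11.6%) in 1909 genes matched no RefSeq gene by both symbol and span. Their median fold was 8.47 and their median log10 p -8.23. Some carried a coding gene's symbol but lay outside its RefSeq span, such as an RBM15 peak at a fold of 18.3. Genes with such peaks still count towards the 44.4%. The 2598 peaks were given no class here, so the share of long noncoding RNA genes may be too low. Among chromosomes 1 to 22 and X, the share of coding genes with a peak was highest on 16 (54.9%, 51.5 to 58.3) and lowest on X (31.4%, 28.3 to 34.6). Chromosome Y was not counted.

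**Figure D1:**
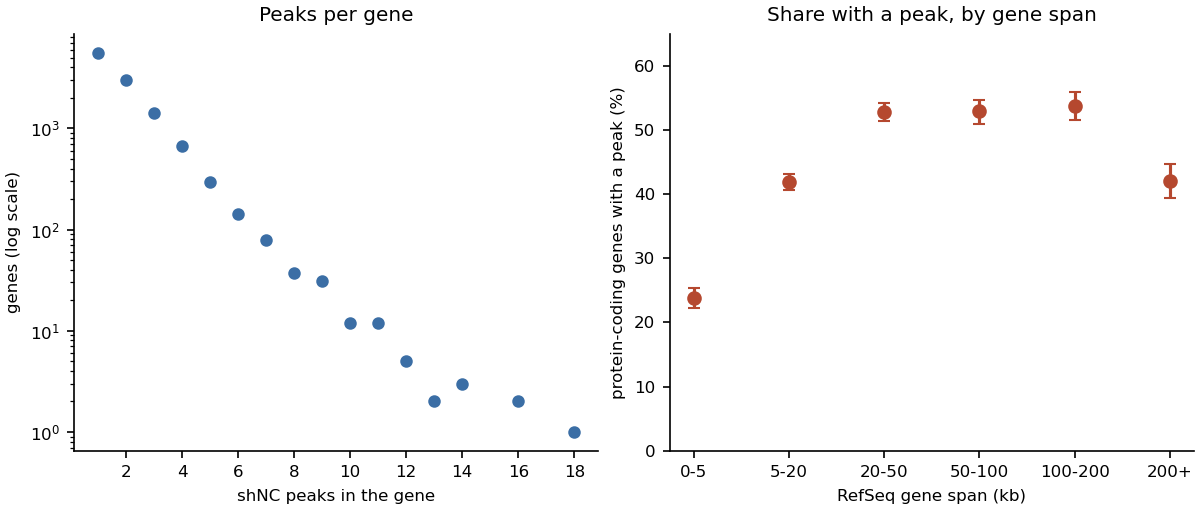
Left, number of genes (log scale) by number of shNC peaks in the gene. Right, share of RefSeq protein-coding genes with at least 1 peak by gene span in kb, with exact 95% binomial intervals. Genes with 1 peak number 5587 and the count falls to 1 gene with 18 peaks; the share with a peak goes from 23.8% under 5 kb to 53.8% between 100 and 200 kb.

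The genes with the most peaks differed in what those peaks looked like. AHNAK, a giant scaffold protein, had 18 peaks within 17155 bases of chromosome 11, none of them with more than 1 block and 15 of the 17 gaps between neighbours under 1000 bp. Their folds were low, from 1.48 to 6.83 with a median of 2.73, while their median log10 p was -132. The AHNAK peaks were therefore shallow in ratio and strong in p. C4orf50, an uncharacterised gene, was listed with 16 peaks of the opposite pairing: a median fold of 13.7 and a median log10 p of -7.16. Of these, 10 had a fold of at least 10. They spread over 201564 bases, beside a RefSeq span of 120960, so some lay outside the gene as RefSeq draws it. Among those was the highest fold, 48.4 at a log10 p of -119. CFLAR, which encodes the caspase-8 inhibitor c-FLIP, also had 16, with a median fold of 5.94. Its folds lay between 2.92 and 11.2 except for 1 peak of 331 bases at 24.5 and 1 of 841 bases at 73.6, and its median log10 p was -10.6. The cytoskeletal linkers MACF1 and DST had 14 each, and the ubiquitin ligase RNF213 and the histone methyltransferase KMT2A had 13 each. SPEN, CHST12, GOLGB1, CENPF and KMT2D tied at 12. MACF1 showed both kinds of peak in 1 gene. Its spliced peak of 541 bases had a fold of 6.89 with log10 p -106, while 2 of its peaks, of 211 and 241 bases, both stood at 23.2 with log10 p -6.08. CENPF, a kinetochore protein, had more than 1 block in 6 of its 12 peaks, and KMT2A in none of its 13.

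Blocks are the pieces of a peak that remain when the sequence between them is skipped, as where a peak runs over an exon junction. More than 1 block was listed for 3915 peaks (17.4%, 16.9 to 17.9), in 3324 genes. Of these, 3376 had 2 blocks, 433 had 3, 88 had 4, 12 had 5, 4 had 6 and 2 had 7. The gap between blocks had a median of 1394 bases with quartiles of 422 and 4100, and 11.4% of the gaps reached 10 kb. The longest was 247862 bases, while 51 of 4586 gaps were under 30 bases. One block usually carried most of the peak: the largest block held at least 75% of the width in 68% (66.5 to 69.5) of peaks with several blocks, and 19.4% had a block under 10 bases. Blocks with a block on either side had a median of 117 bases. Peaks with several blocks were wider (median 330 bases beside 270) and stronger in p (median log10 p -31.6 beside -13.8), at nearly the same median fold (6.66 beside 6.5). With the peaks split into 4 equal classes from the strongest p to the weakest, the share with several blocks was 26.3%, 18.5%, 14.5% and 10.5%.

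The peaks with most blocks show what a spliced peak looked like. GOLIM4, a Golgi membrane protein, had a 7-block peak on chromosome 3 between 168010116 and 168029988, with blocks of 303, 81, 69, 168, 110, 80 and 209 bases and a fold of 3.69. The 7-block peak of INCENP, a subunit of the chromosomal passenger complex, covered 776 bases with a fold of 9.53. The 6-block peak of EIF5B, the factor that joins ribosomal subunits, opened at the gene start, 6 bases upstream of the RefSeq start, had blocks of 207, 126, 85, 673, 218 and 131 bases, and stood at a fold of 12.3 with log10 p -1020. CHAF1A, a histone chaperone subunit, had 5 blocks of 877, 57, 230, 61 and 30 bases with a fold of 22.4. HNRNPD, HNRNPA2B1 and CDC37 also had 5-block peaks, at folds of 10.2, 4.2 and 3.57. The kinesin CENPE had a 6-block peak of 991 bases and more than 1 block in 9 of its 11 peaks. TICAM1, the adaptor TRIF, was different: its 6 blocks of 197, 3, 39, 3, 12 and 17 bases all lay between 4817695 and 4817970 on chromosome 19. The blocks summed to 271 bases, nearly the whole stretch, so only a few bases were skipped and no piece of intron length. A 1-block TICAM1 peak of 715 bases, between 4817715 and 4818429, was listed over most of the same stretch.

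Peak width, the sum of the blocks, had a median of 270 bases with quartiles of 180 and 449, and 5% of peaks were under or at 91 and 5% at or over 927. Widths fell on a grid: 84.9% (84.4 to 85.3) lay within 1 base of a multiple of 30. The commonest were 181 bases with 1000 peaks, 151 with 986 and 180 with 924. The narrowest peak had 81 bases. Wider peaks had higher folds and stronger p. Up to 120 bases the median fold was 3.7 and the median log10 p -3.54, from 331 to 510 bases they were 8.2 and -45.3, and for the 835 peaks of at least 1000 bases they were 13.9 and -154. Over all 22448 peaks, Spearman's rho was 0.792 between width and -log10 p and 0.431 between width and fold; peaks share the same libraries, so these are descriptions.

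**Figure D2:**
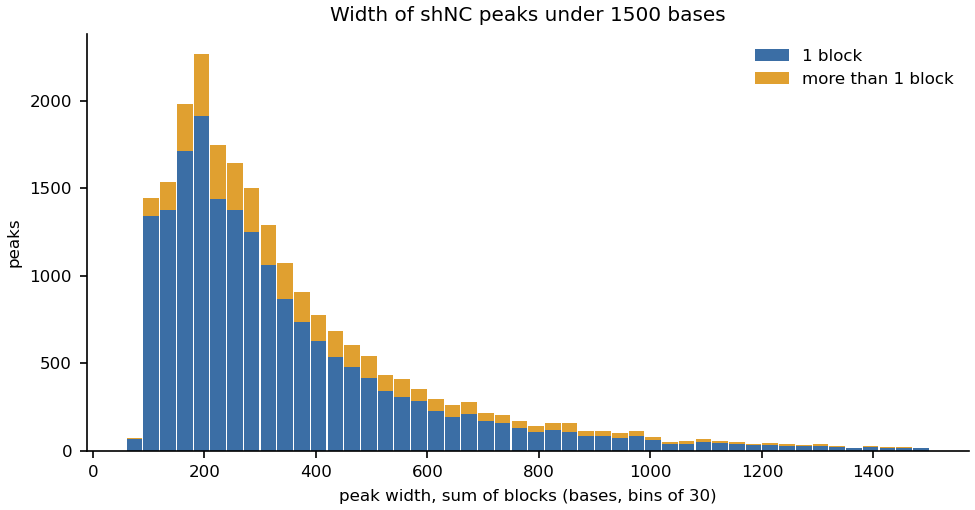
Number of shNC peaks by width in bins of 30 bases, for widths under 1500 bases, stacked by 1 block and more than 1 block; 180 wider peaks are not drawn. The tallest bar starts at 180 bases, and peaks with several blocks occur at all widths.

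The widest peaks reached several kilobases. SMCR8, a partner of C9orf72 in autophagy, had the widest at 3870 bases in 2 long blocks of 1880 and 1990 bases, with a fold of 14.7. RANBP6, an importin of the beta family, had 1 peak of 3175 bases in a single block, starting 269 bases from the RefSeq start and ending 1156 bases before its end, with a fold of 32.2. That peak was thus the gene's only one and took up most of it. PLEC and RBBP6 had peaks of 3147 and 3143 bases, C15orf39 one of 2966 and ZC3H4 one of 2787. THAP12 had 2786 bases at a log10 p of -852, and NUFIP2 2698 bases in 4 blocks opening 30 bases from the gene start. ZNF451 and PURB followed at 2518 and 2515 bases with folds of 32.5 and 9.97.

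The folds had a median of 6.54 with quartiles of 3.44 and 12.5 and ran from 1.12 to 301. A fold of at least 10 was listed for 33.7% of peaks (33.1 to 34.3), at least 20 for 9.39%, at least 50 for 174 peaks and at least 100 for 18. CARD8-AS1, a long noncoding RNA antisense to CARD8, had the highest at 301 over 508 bases. ZNF254, a zinc finger gene, followed at 204, then DSE, an epimerase of dermatan sulfate, at 174, ADGRA3 at 133 and ANKLE2 at 130. The reader YTHDF3 had a peak of 1676 bases with a fold of 127, the remodeller CHD3 a start peak of 240 bases with 126, LMTK3 123, ALG11 121 and DOHH, the last enzyme of hypusine synthesis, 120. CARD8-AS1 is an antisense gene, and without a stated strand setting its reads cannot be told apart from those of the opposite strand.

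Ranking by p, with the same kinds of gene left out, gave other genes. MYC, the oncogenic transcription factor, had the strongest log10 p that could be read in a nuclear gene, -9930, at a fold of 22.9 over 743 bases. CALR, the endoplasmic reticulum chaperone calreticulin, followed at -7730 with a fold of 7.82, then CUL1 at -6300, UBE2Q1 at -5610, EEF2 at -5170 with a fold of 5.77, EIF4G1 at -5080, HSPA8 at -4480 with a fold of 31.1, SLC7A5 at -3950 and ACTL8 at -3250. RBM48 had a p cell that held a spreadsheet error and was ranked first, at a fold of 38.6. Of the 1000 highest folds, 37 were also among the 1000 strongest p, and Spearman's rho of fold and -log10 p over peaks was 0.246. Part of the high folds repeated a few values: a fold of 14.3 with a log10 p of -3.5 was listed for 132 peaks, 12.5 with -2.99 for 127 and 13.4 with -3.25 for 122, in steps of about 0.9 in fold. A pair of fold and p shared by at least 5 peaks was listed for 14.7% of all peaks and for 27.5% (26.5 to 28.5) of those with a fold of at least 10. Of the peaks with a fold of at least 10, 24.6% had a log10 p above -6. The same fold could thus come with very different p, and p is given beside several high folds in what follows.

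**Figure D3:**
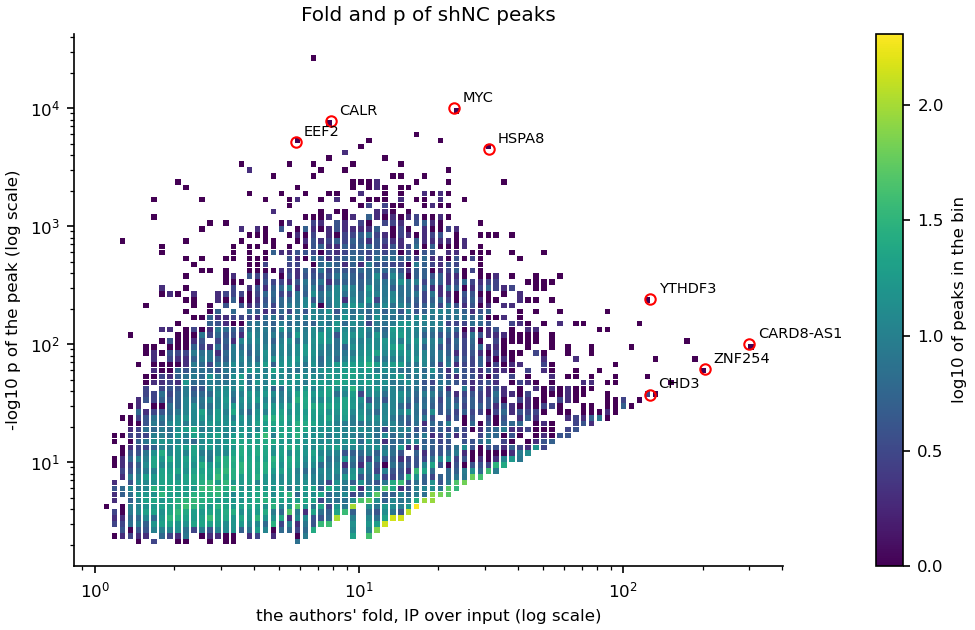
Fold of IP over input (log scale) against -log10 p (log scale) for shNC peaks whose p could be read, with colour for the log10 number of peaks in each bin and red circles for 8 named peaks. MYC, CALR, EEF2 and HSPA8 stand at the top at folds of 5.77 to 31.1, CARD8-AS1, ZNF254, YTHDF3 and CHD3 at the right at folds of 126 to 301, and the narrow bands at lower right are the repeated pairs of fold and p.

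Some strong peaks were listed under more than 1 gene or under a processed copy. On the same strand, 1801 peaks (8.02%, 7.67 to 8.39) shared a base with another peak, and 17% did so when strand was ignored. MYC itself had 2 start peaks that overlapped, of 179 and 115 bases with folds of 2.75 and 2.12, beside peaks of 328 bases at 3.94 and 743 bases at 22.9. The pseudogene PTMAP5 was listed with a pair of overlapping peaks at folds of 8.79 and 8.77 and log10 p of -4050 and -4010, and RHOQP1 with a fold of 194. Reads of processed pseudogenes and of their parent genes can be split between near-identical copies, so these values are uncertain.

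RefSeq spans placed 19850 peaks (88.4%) along their gene. At the start, meaning a 5' edge upstream of the RefSeq start or under 500 bp downstream of it, lay 2267 peaks (11.4%, 11 to 11.9). At the end, meaning a 3' edge under 1000 bp from the RefSeq end in a peak not at the start, lay 4567 (23%, 22.4 to 23.6). A peak that met both limits was counted at the start only, which favours the start in short genes. The NCBP2-AS2 peak, 8 bases from the start and 3 from the end, was such a case. With the gene span cut into 10 equal parts from 5' to 3', part 1 held 11.8% of placed peaks, parts 2 to 6 between 4.02% and 4.87% each, part 9 12.8% and part 10 39.4% (38.7 to 40.1). Start peaks were narrow and often spliced, with a median width of 210 bases, a median fold of 5.13 and more than 1 block in 30.2%. End peaks had a median width of 299 bases, a fold of 5.83, more than 1 block in 9.22% and the strongest median log10 p of the positions, -23.8 beside -10.1 at the start. Single-peak genes had their peak at the start in 15.8% (14.7 to 16.9) and at the end in 32.8% (31.4 to 34.2), and genes with at least 5 peaks had 5.6% and 11.3% of their peaks there.

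**Figure D4:**
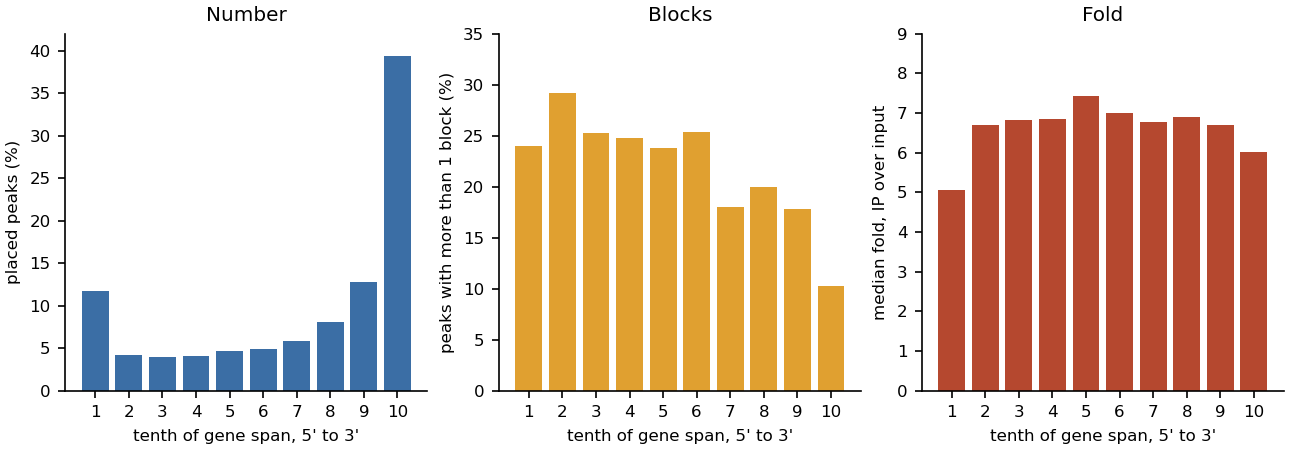
Placed shNC peaks by 10 equal parts of the RefSeq gene span from 5' to 3': share of peaks (left, %), share with more than 1 block (middle, %) and median fold of IP over input (right). The part at the 3' end holds 39.4% of the peaks and has several blocks in 10.3%, and the part at the 5' end has the lowest median fold, 5.05.

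The 5' edge of start peaks lay a median of 37 bases downstream of the RefSeq start. The strongest by p were those of EID1 and YBX1, both at -3170. YBX1, a cold-shock RNA-binding protein, had 209 bases starting 9 bases from the RefSeq start with a fold of 6.76. PCBP1, a poly(C)-binding protein encoded without introns, had 416 bases at a fold of 7.37, and FTH1, ferritin heavy chain, had 359 bases in 2 blocks at 4.57. MAF, the transcription factor activated in some myelomas, had a start peak of 1857 bases in 1 block with a fold of 4.65. The highest folds at starts belonged to CHD3 (126), FBXW4 (106), SYNCRIP (93.7) and PURA (87.4). Of these PURA had the strongest log10 p, -195, over 1288 bases.

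The gene groups below are lists written from general knowledge with earlier results of these data in view, and each count is read beside 44.4% of coding genes with a peak. The highest fold of each gene had a median of 9.78 over all coding genes with a peak, and the fold of all their peaks a median of 6.24. Of the 34 groups with a known number of members, 21 had a share above 44.4%. A gene without a peak may be unmarked or too weakly transcribed to be seen, and these could not be told apart.

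The genes of the m6A machinery nearly all carried peaks themselves, 22 of 25 (88%, 68.8 to 97.5), and 31.1% of their 61 peaks had more than 1 block, beside 17.8% for coding genes. Their median highest fold, 8.57, lay below 9.78. Of the writer complex, METTL3, the catalytic subunit, had 3 peaks with folds from 1.67 to 2.55, and its partner METTL14 had 1 peak of 1319 bases at 6.59. WTAP and VIRMA, which hold the complex together, had 5 peaks each with highest folds of 17.1 and 14.6, where the strongest VIRMA peak by p stood at 6.62, and ZC3H13 had 6, of which 4 had several blocks, with a highest fold of 16. RBM15, an RNA-binding adaptor, had 3 peaks covering 2965 bases, among them 1 of 2425 bases at a fold of 26.2, and its paralogue RBM15B had 3 up to 7.76. CBLL1, another associated subunit, reached 7.37, so METTL3 and METTL14 had the lowest highest folds of the complex. METTL16, which methylates a few structured RNAs, reached 20, and PCIF1, the m6Am writer, had 1 peak at 7.56. Of the demethylases, ALKBH5 had 3 peaks from 1.35 to 5.98 and FTO 1 at 3.65. Of the readers, YTHDF3 stood at 127, YTHDF2 at 17.2 with a log10 p of -1520, YTHDC1 at 14.3, YTHDF1 at 9.96 and YTHDC2 at 3.63. IGF2BP3 reached 23.2, but in a peak of 211 bases with a log10 p of -6.08, and IGF2BP2 reached 9.38. IGF2BP1, METTL5 and ZCCHC4 had no peak.

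Genes of plasma cell identity and of myeloma had a peak in 25 of 36 cases (69.4%, 51.9 to 83.7), with a median highest fold of 8.23 and a start position for 24.6% of placed peaks. IRF4, a transcription factor on which myeloma cells depend, had 5 peaks with folds of 5.59, 2.39, 11.6, 1.39 and 1.56 from 5' to 3', and only the 809-base peak in the middle stood high. PRDM1, the factor that drives plasma cell differentiation, had 3, all between 11.2 and 15.7. XBP1, the secretory transcription factor, had 2 peaks at the gene end with folds of 1.77 and 1.66. IKZF3 and IKZF1, the targets of lenalidomide, had highest folds of 23.3 and 16.4. The receptor gene TNFRSF13B reached 30.7, SDC1 (CD138) 10.1 with 4 peaks, and CD38 4.06 with 2. BCL2, the antiapoptotic protein, had 4 peaks covering 4673 bases, with a 2186-base start peak at 26.3 and a 3-block peak at 30.9, while MCL1 had 3 up to 8.02. The histone methyltransferase NSD2 had 6 peaks, with 14.3 at a log10 p of -6.73 and 13.2 at -345. TNFRSF17, SLAMF7, JCHAIN, NRAS and TRAF3 were among the 11 genes without a peak.

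The unfolded protein response and folding in the endoplasmic reticulum had the highest share of all groups, 32 of 35 (91.4%, 76.9 to 98.2), and 50% of the members with a peak had a single one. Their peaks had a median log10 p of -56.1, beside -18.1 for coding genes, and a median fold of 4.77, below 6.24; 42% lay at the gene end. The sensors ERN1, EIF2AK3 and ATF6 reached 16.1, 10.4 and 8.91, and the strongest ERN1 peak by p stood at 9.28. SEL1L, an adaptor of endoplasmic reticulum-associated degradation, had a 1290-base peak at 42.8, and HSPA5, the chaperone BiP, 1 peak at 6.52 with a log10 p of -2650. PPP1R15A, EDEM1 and SDF2L1 reached 22.3, 20.5 and 19.2, the first 2 at a log10 p of only -11.4 and -11.8. Genes of NF-kappa-B and tumour necrosis factor receptor signalling had a peak in 33 of 39 cases (84.6%, 69.5 to 94.1), with a median width of 359 bases and 36.5% of peaks at the gene end. TNFRSF1A reached 27.2, at a log10 p of -37.2, while its strongest peak by p stood at 10.9. The kinase RIPK1 reached 23.2 in a peak of 1550 bases. The adaptor TRAF1 had 5 peaks, with 21 at a log10 p of -10.6 and 12.4 at -40.2. The subunit RELA reached 17.8 only at a log10 p of -4.52, and its strongest peak, at -233, stood at 4.31. For NFKB2 the peaks were 14.3 at -3.5 and 8.41 at -11.3, and NFKB1 had 1 peak at 2.11 with -24.3.

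MAP kinase genes had a peak in 42 of 51 cases (82.4%, 69.1 to 91.6). JUN, an AP-1 subunit, reached 52.6 with a log10 p of -345, and the kinase MAP3K4 38.2 with -295, while the 90.1 of MAP2K7, whose strongest peak by p stood at 5.23, and the 67.8 of RASA1 had -29.9 and -22.2. In the BCL2 family and the caspases, 19 of 28 had a peak, and the median highest fold was 13.9. Beside CFLAR and BCL2, the proapoptotic HRK had 1 peak at 29.4 with a log10 p of -15.6, and BCL2L13 had 29.4 at -7.92 and 9.47 at -103. BMF had 6 peaks up to 22.2 and CASP8 had 5 up to 11.5. BAD, BAK1 and BID were among the 9 without a peak. Cell cycle genes had a peak in 28 of 43 cases with a low median highest fold, 5.38. MKI67, the proliferation antigen, had 10 peaks up to 13.3, and CCNB1, CDK1, CDK2 and PLK1 were among the 15 without one.

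Chromatin genes had many peaks each. Histone lysine methyltransferases and demethylases had a peak in 43 of 55 cases (78.2%, 65 to 88.2), with 4.07 peaks per gene with a peak beside 2.12 for coding genes, and 16 of the 55 had at least 5 peaks, beside 2.88% of coding genes. KMT2A, KMT2D and KMT2C, large methyltransferases of H3K4, had 13, 12 and 11 peaks, and SETD2 and ASH1L had 9 each. NSD1 reached 46.8, KMT5B 31.1 in a peak of 1890 bases, and EZH2 had a single peak at 1.97. Chromatin remodellers and deacetylases had a peak in 59 of 70 cases (84.3%, 73.6 to 91.9). CHD9 reached 72.5 with a log10 p of -151, and HDAC4 reached 94.6 with -28.9.

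Zinc finger genes of the ZNF series were the largest group, with 383 of 509 (75.2%, 71.3 to 78.9) carrying 1098 peaks and 54 carrying at least 5. Their median highest fold of 16.3 was the highest of the groups with at least 5 members with a peak. The 266 genes with a peak that encode a KRAB domain, which recruits a corepressor to mobile elements, had a median fold of 10.1 over 750 peaks (quartiles 5.89 and 16.3) and a median width of 360 bases. The 117 without KRAB had 8.08 and 331 bases, and coding genes outside the series 6.02 and 271 bases. KRAB genes had several blocks in 8.4% of peaks and a start position in 1.79% of placed peaks, beside 18.3% and 10.9% for coding genes outside the series. On chromosome 19, where 59.2% of the KRAB gene peaks lay, the median fold was 7.08 with ZNF genes and 5.8 without them. ZNF184 reached 114 with a log10 p of -155, ZNF493 112 and ZNF229 101, and ZNF518B, ZNF407 and ZNF468 had 9 peaks each. These genes are near-identical in parts, so reads could be split between them.

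**Figure D5:**
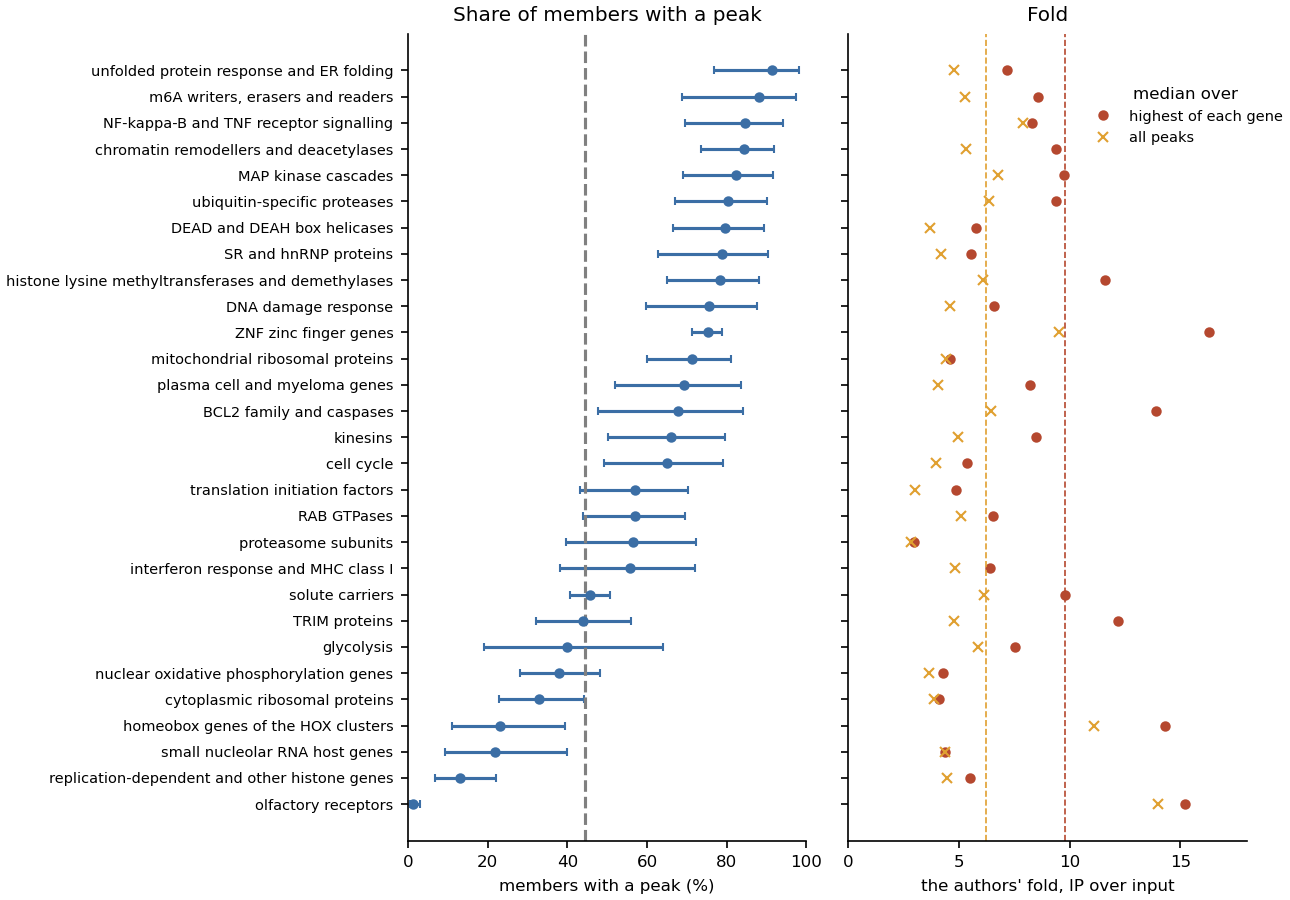
Left, share of members with a shNC peak for gene groups with at least 5 members with a peak, with exact 95% binomial intervals and the 44.4% of all protein-coding genes as a dashed line. Right, median of the highest fold per gene (circles) and median fold of all peaks (crosses), with dashed lines at 9.78 and 6.24 for all coding genes; ZNF genes stand at 16.3 and proteasome subunits at 2.97.

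Groups of RNA-handling genes had low median folds and many spliced peaks. DEAD and DEAH box helicases had a peak in 43 of 54 cases (79.6%, 66.5 to 89.4), a median fold of 3.71 over all peaks and several blocks in 36.7%. SR and hnRNP proteins had a peak in 30 of 38 (78.9%, 62.7 to 90.4), with a median fold of 4.2 and several blocks in 28.6%. Translation initiation factors had a peak in 32 of 56 (57.1%, 43.2 to 70.3), an interval that spans the 44.4%, with a median fold of 3.02 and several blocks in 36.7%. The helicase DDX6, a factor of mRNA decay, reached 20.1, HNRNPLL, a splicing regulator of lymphocytes and plasma cells, 26.1, and EIF3A had 5 peaks up to 8.25. Ubiquitin-specific proteases had a peak in 41 of 51 cases, with USP51 at 65.1 and USP38 at 26.2. DNA damage genes had a peak in 31 of 41, with LIG4, the ligase of end joining, at 55.8, and kinesins in 29 of 44, with 8 peaks in KIF16B. Solute carriers (173 of 379, 45.6%) and TRIM proteins (32 of 73, 43.8%) lay near the background, and RAB GTPases had 36 of 63. Interferon response and antigen presentation genes had a peak in 20 of 36 cases (55.6%, 38.1 to 72.1), led by the transcription factor IRF3 at 35.7 and by IFIT5 at 31.4.

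Housekeeping gene groups differed in share and position. Proteasome subunits had a peak in 22 of 39 cases, 17 of these genes with a single one (77.3%), with a median highest fold of 2.97 and 50% of placed peaks at the gene start. PSMA5 reached 24.1, at a log10 p of -12.5, and PSMB5, the target of bortezomib, had no peak. Cytoplasmic ribosomal protein genes had a peak in 27 of 82 (32.9%, 22.9 to 44.2), at the start in 42.4% and with a median log10 p of -6.78. Mitochondrial ribosomal protein genes, by contrast in number, had one in 55 of 77 (71.4%, 60 to 81.2), with 55.6% of placed peaks at the gene end and 9.72% at the start. MRPL35 reached 24.6 with a log10 p of -558. Nuclear genes of oxidative phosphorylation had a peak in 37 of 98, and 32.6% of placed peaks at the start. Glycolysis had 8 of 20, led by PFKFB3 at 11.7 and HK2 at 11.1, and LDHA, PGK1 and ALDOA had none. The 10 mitochondrially encoded genes in the list had 15 peaks with a median fold of 2.19, and MT-ATP8 had a log10 p of -26100 at a fold of 6.63. Neighbouring mitochondrial genes adjoin or overlap on long shared transcripts, so these peaks cannot be assigned to 1 gene with certainty.

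At the low end, the listed histone genes had a peak in 11 of 84 cases (13.1%, 6.72 to 22.2). The histone gene H2AFX, with a start peak at a fold of 16 and log10 p -1250, was not counted among the 11. Most histone genes make transcripts without a poly(A) tail, and the libraries were made from poly(A) RNA. Whether this bears on their share was not tested. Small nucleolar RNA host genes had 7 of 32 (21.9%, 9.28 to 40), each with 1 peak. That share lay below the 44.4% of coding genes but above the 2.62% of long noncoding RNA genes. The 2.62% counts only peaks that overlapped the RefSeq span of the gene, which the other shares do not require. HOX genes had 9 of 39. Olfactory receptors, which are silent in most tissues, had 5 of 392 (1.28%, 0.415 to 2.95), and keratins 4 of 55. The few peaks of the olfactory receptors had a median fold of 14 but a median log10 p of -4.79, with OR2I1 at 26.9 and -144 as the strongest named.

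Of 16 plasma cell markers, 10 had a peak (62.5%, 35.4 to 84.8), an interval that spans the 44.4% of coding genes, so these peaks alone do not check the labelled cell type. The genes TNFRSF17, SLAMF7, JCHAIN, CD27, FCRL5 and CD79A had none. Of the markers of other cell types, 2 of 16 for T and NK cells had a peak (CD8B and NCAM1), 3 of 14 for myeloid cells (ITGAM, CD68 and C1QA), 3 of 12 for stromal cells (PDGFRB, CXCL12 and VIM) and 0 of 7 for erythroid cells. NCAM1, also called CD56 and often present on myeloma cells, had 5 peaks up to 7.72. A peak is not a measure of expression, so a missing marker peak does not show that the gene was silent.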

How the data were processed

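Poly(A) RNA of RPMI-8226 cells with the hairpin shNC gave 1 IP and 1 input library, per the labels. Per the submitters' processing notes, which give no role or order, hg38, HOMER 4.9.1, BWA 0.7.12 and fastp 0.19.11 were used. Not given in the sources used here are the peak caller, strand setting and scaling of IP to input. Per the file headers, the deposited list gives each peak's blocks, gene, fold (a ratio of IP over input) and p-value. The deposited log10 p and log10 FDR columns were treated as a score, and 2 and 1079 of their cells held spreadsheet errors, ranked as strongest. There are no counts, so the depth is unknown.

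Genes were matched to RefSeq GRCh38.p14 by symbol, and a peak was placed only where it overlapped the span of that gene. Widths are sums of blocks. Hairpin and start sequences of chromosome 8 were left out, and for the start sequences 1 window per gene was used. SciPy 1.17.1, numpy 2.4.6, pandas 2.3.3 and matplotlib 3.10.9 were run under Python 3.11.15. On simulated data, all 600 placements and 700 overlap calls were right (100%). The members, gene lists and alternatives were chosen with earlier results of these data known.

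Named genes were the 10 with the most peaks (ties kept), and the 10 peaks, 1 per gene, with the highest fold, strongest p, largest width and most blocks, leaving out pseudogenes, unnamed loci and immunoglobulin genes. Of each gene list, up to 4 members by fold and 3 by number of peaks were named, and ALKBH5. Some genes that the rule names are not reported here. Other genes, among them further members of the lists, start peaks, pseudogenes and hairpins, were chosen after their values were seen. Alternatives were an FDR under 0.01, a fold of at least 2, leaving out same-strand overlaps, merging within 100 bp, blocks of at least 10 bases, spans with gaps, other positions (200 and 500 bp, or the peak centre) and other folds per gene.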

Additional observations from a re-analysis of the deposited data

How the results depend on the processing

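No paired analysis was possible because there was 1 IP and 1 input library and no replicate. With only peaks of a fold of at least 2, the share of genes with a single peak went from 49.4% to 51.5%, the median width from 270 to 298 bases and the median fold from 6.54 to 7.14. Single-peak genes made up 50.7% without peaks that share a base on the same strand and 51.8% with peaks within 100 bp merged. Counting only blocks of at least 10 bases, 14.6% of peaks had more than 1 block, and with gaps included the median span was 301 bases. With limits of 200 and 500 bp, 8.3% of placed peaks lay at the start and 15.2% at the end, and by the peak centre 8.12% and 19.7%, in place of 11.4% and 23%. Each alternative changes the definition of the quantity or the peaks kept. At an FDR under 0.01, all 70 values of the gene groups stayed within their intervals or quartiles, as did 67 of 70 at a fold of at least 2 and 69 of 70 without same-strand overlaps. With the fold of the strongest-p peak per gene it was 33 of 35, and with the median over all peaks 24 of 35, so fold values of the groups depend on that choice. That median put 6 of 30 groups on the other side of the coding-gene value, among them histone lysine methyltransferases and demethylases (6.08 beside 6.24) and TRIM proteins (4.75 beside 6.24). Solute carriers changed side at a fold of at least 2, as did MAP kinase cascades, glycolysis or chromatin remodellers under another setting. The main limits are the single library of each kind, the unknown depth and peak caller, and 1 RefSeq span per gene, which hides alternative starts and ends.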
